A study of Mus musculus with 8 samples.

Results

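Genes of LIF, FGF2 and STAT3 signalling, 10 in all, were followed through photoreceptor degeneration in whole mouse retina, namely Lif, Lifr, Il6st, Osmr, Clcf1, Cntf, Stat3, Socs3, Fgf2 and Fgf2os. They are 10 of the 57010 Ensembl gene identifiers in the count table, matched by identifier, and all 10 passed the filter on low counts. The members were chosen with the counts and fold changes of these same 8 libraries in view, so their levels and changes are given as a description, without p-values. Poly(A) RNA of 1 whole retina per library was sequenced in 4 groups of 2 libraries, which were WT mice at postnatal day 15 (WT P15) and 3 ages of rd10 mice, postnatal days 15 (rd10 P15), 18 (rd10 P18) and 21 (rd10 P21). The rd10 mice were homozygous for a mutation of Pde6b, the rod phosphodiesterase gene, and the controls were wild-type littermates according to the study's methods. The labels name no drug treatment or transgene for these groups. No WT library at P18 or P21 was analysed here, so age and genotype cannot be told apart in the comparisons of rd10 P18 and rd10 P21 with WT P15, and the 3 comparisons with WT P15 share the same control libraries. The labels do not say whether the 2 retinas of a group came from separate animals, so the spread between libraries may be partly technical.

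LIF, CNTF and CLCF1 are cytokines of the interleukin-6 family. LIF binds its receptor LIFR, which pairs with the shared signalling chain gp130, the product of Il6st, and oncostatin M uses OSMR together with gp130. The receptors activate JAK kinases, which phosphorylate the transcription factor STAT3, and STAT3 induces Socs3, whose product blocks the JAKs and the receptor in a negative feedback. In the degenerating retina LIF is known as a survival signal that acts on Muller glia and photoreceptors, and it is upstream of the photoreceptor gene Edn2. FGF2 is a growth factor made by Muller glia and photoreceptors of the stressed retina and protects photoreceptors when it is supplied from outside. Fgf2os is an antisense transcript at the start of Fgf2.

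STAT proteins bind the palindrome TTCNNNGAA, which reads the same on both strands. This motif was searched in the RefSeq promoter windows of the members on GRCm38.p6, which run from 250 bases before to 50 bases after a gene's start. Windows were found for 9 members, 10 windows in all because Lifr has 2. Only the Socs3 window held the motif, 1 of 10, and 8.3% of all 32851 windows held it. The Socs3 window lies at chr11:117969317-117969616 on the minus strand, and the Stat3 window at chr11:100939491-100939790 on the minus strand. Both are shown because Socs3 and Stat3 are among the members whose call at P18, given below, held in every alternative run, and the motif TTCTTAGAA of Socs3, whose first base is base 97 of the window, is in capitals.
Socs3: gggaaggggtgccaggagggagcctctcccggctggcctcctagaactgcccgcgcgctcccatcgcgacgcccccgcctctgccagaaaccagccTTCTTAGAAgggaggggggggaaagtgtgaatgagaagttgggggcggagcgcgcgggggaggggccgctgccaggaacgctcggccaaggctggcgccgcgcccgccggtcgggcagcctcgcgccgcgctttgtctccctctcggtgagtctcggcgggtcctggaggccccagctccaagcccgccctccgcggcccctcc
Stat3: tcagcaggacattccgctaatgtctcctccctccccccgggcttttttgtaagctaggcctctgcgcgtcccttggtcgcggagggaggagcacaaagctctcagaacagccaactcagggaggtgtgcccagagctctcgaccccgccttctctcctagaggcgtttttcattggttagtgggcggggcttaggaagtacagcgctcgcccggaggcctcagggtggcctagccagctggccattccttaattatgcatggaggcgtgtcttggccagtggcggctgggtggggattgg
These letters are not in the Stat3 window or in those of Lif, Lifr, Il6st, Osmr, Cntf, Fgf2 and Fgf2os, which describes the windows alone. The build used for the count table is not given in the sources used here, so the windows carry no measurement of their own.

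Total counts lay between 28076947 and 33724562 per library. The 4 Y-linked genes read summed to between 5530 and 7193 counts in 4 libraries (both of rd10 P15, replicate 1 of rd10 P18 and replicate 1 of rd10 P21) and to at most 19 in the other 4. WT P15 and rd10 P15 were thus of different sexes, and rd10 P18 and rd10 P21 each held 1 library of each sex. Genotype and sex cannot be told apart in the comparison of rd10 P15 with WT P15. Rod markers, which the retina should hold, summed to at least 20592 counts per 1000000 (CPM) in every library. CPM here are counts scaled by TMM, which corrects for library size and composition. In bulk retina, fewer cells of a type and less RNA per cell cannot be told apart.

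Of the ligands, Lif was scarce before P18 and highest at P18. It measured 0.517 and 1.23 CPM in WT P15, 0.605 and 0.106 CPM in rd10 P15, 4.92 and 9.14 CPM in rd10 P18, and 1.71 and 2.24 CPM in rd10 P21. Both rd10 P18 libraries and both rd10 P21 libraries lay above both WT P15 libraries, whereas the rd10 P15 and WT P15 libraries overlapped. The counts behind these levels ran from 3 in rd10 P15 replicate 2 to 290 in rd10 P18 replicate 2. The log2 fold change against WT P15 was 2.995 (SE 0.75) at P18 and 1.16 (SE 0.72) at P21, and neither met the call rule, which was an adjusted p under 0.05 by edgeR's quasi-likelihood test and an absolute log2 fold change over 1. At the same thresholds DESeq2, the tool the study used, called Lif at P18 among 954 genes called, and not at P21.

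Cntf, a neurotrophic cytokine without a classical secretion signal, followed the same order. It measured 2.59 and 3.72 CPM in WT P15, 3.79 and 2.54 CPM in rd10 P15, 15.5 and 12.2 CPM in rd10 P18, and 10.4 and 6.26 CPM in rd10 P21. The 4 later rd10 libraries were all above the 4 P15 libraries. Its log2 fold change against WT P15 was 2.13 (SE 0.37) at P18, where it met the call rule, and 1.40 (SE 0.37) at P21, where it did not. In GENCODE M21, 847 of its 1073 exon bases (78.9%) are shared with Zfp91 on the same strand, and Zfp91 measured between 155 and 219.7 CPM, so the reads of Cntf are uncertain. Zfp91 itself measured 155 and 199 CPM in rd10 P18, against 218 and 192 CPM in WT P15.

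Clcf1, a cytokine that signals through the CNTF receptor, varied as much within groups as between them. Its levels were 4.69 and 0.324 CPM in WT P15, 2.39 and 1.30 CPM in rd10 P15, 3.91 and 5.51 CPM in rd10 P18, and 0.485 and 4.13 CPM in rd10 P21. No rd10 group was clear of WT P15, and the log2 fold changes against it carried SEs between 1.24 and 1.26. Its P18 value of 0.91 became 3.85 without WT P15 replicate 1, and its P21 value of -0.12 became 2.82 without that library and -2.35 without rd10 P21 replicate 2.

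The receptor chains split, with Osmr well above WT P15 at P18 and P21 and Lifr and Il6st close to it. Osmr measured 6.06 and 10.5 CPM in WT P15, 9.04 and 10.5 CPM in rd10 P15, 42.1 and 44.2 CPM in rd10 P18, and 28.0 and 27.4 CPM in rd10 P21. The libraries of rd10 P18 and rd10 P21 were far above every P15 library, with P18 above P21, while rd10 P15 overlapped WT P15. Its log2 fold change against WT P15 was 2.38 (SE 0.26) at P18 and 1.74 (SE 0.26) at P21, and both met the call rule.

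Lifr, the chain that binds LIF directly, was lower in every rd10 library than in WT P15. It measured 119 and 105 CPM in WT P15, 94.2 and 90.9 CPM in rd10 P15, 82.4 and 94.4 CPM in rd10 P18, and 83.6 and 91.1 CPM in rd10 P21. The 3 rd10 groups overlapped one another, and the log2 fold changes against WT P15 were -0.28, -0.34 and -0.36 (SE 0.14 each) with age, none past the call rule.
Il6st, the gp130 gene, measured 138 and 157 CPM in WT P15, 136 and 125 CPM in rd10 P15, 134 and 216 CPM in rd10 P18, and 205 and 188 CPM in rd10 P21. Its P18 libraries lay on either side of WT P15, and both P21 libraries lay above it, with a log2 fold change of 0.41 (SE 0.21) at P21 that did not meet the call rule.

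Stat3 itself was uniform within groups and shifted between them. It measured 70.8 and 72.7 CPM in WT P15, 61.0 and 62.1 CPM in rd10 P15, 194 and 205 CPM in rd10 P18, and 154 and 168 CPM in rd10 P21. No 2 groups overlapped, with rd10 P15 lowest, then WT P15, rd10 P21 and rd10 P18. The log2 fold change against WT P15 was -0.22 (SE 0.12) at P15, 1.47 (SE 0.12) at P18 and 1.16 (SE 0.12) at P21, and the later 2 met the call rule. In GENCODE M21, 72 of its 9527 exon bases overlap Stat5a, which measured at most 13.6 CPM.

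Socs3, the feedback inhibitor of the pathway, had the same order of groups and a sharper peak. It measured 3.58 and 3.17 CPM in WT P15, 1.94 and 1.48 CPM in rd10 P15, 51.6 and 42.7 CPM in rd10 P18, and 12.3 and 7.83 CPM in rd10 P21. Again no 2 groups overlapped. The log2 fold change against WT P15 was -0.98 (SE 0.29) at P15, 3.80 (SE 0.29) at P18 and 1.58 (SE 0.27) at P21, and the P18 value met the call rule. From P18 to P21 Socs3 differed by -2.23 (SE 0.27) and Stat3 by -0.31 (SE 0.12) on the log2 scale, neither past the call rule.

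**Figure D1:**
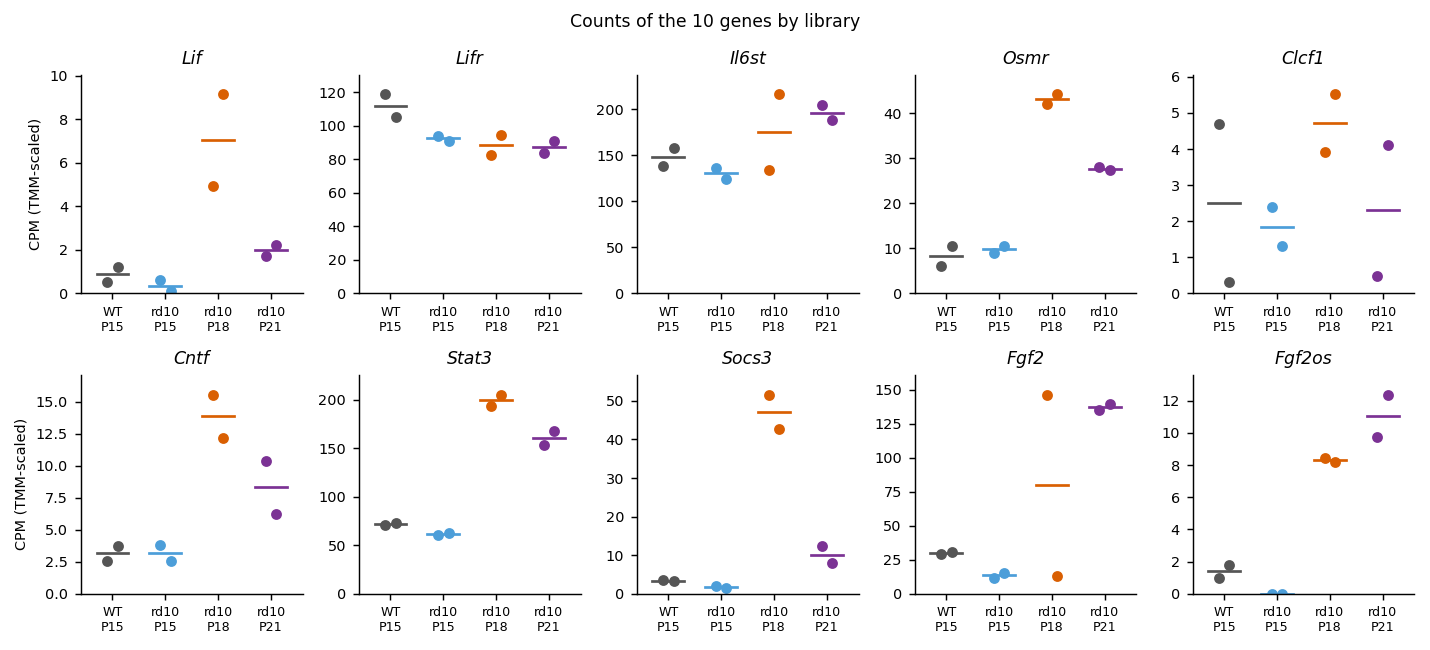
TMM-scaled CPM of the 10 genes (y axes, linear, from 0) in WT P15, rd10 P15, rd10 P18 and rd10 P21 (x axes), with 1 point per library and a bar at the mean of 2. Stat3, Socs3, Osmr, Cntf and Lif are highest at P18, and Fgf2 has 1 rd10 P18 library at 146 CPM and the other at 12.9 CPM.

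Fgf2 and Fgf2os were read together and per library. Fgf2 measured 29.5 and 30.8 CPM in WT P15, 11.8 and 15.3 CPM in rd10 P15, 146 and 12.9 CPM in rd10 P18, and 135 and 139.6 CPM in rd10 P21. Both rd10 P15 libraries lay below WT P15 and both rd10 P21 libraries above it, while the rd10 P18 libraries stood 11.4-fold apart, 1 beside the P21 level and 1 beside the rd10 P15 level. The log2 fold change against WT P15 was -1.15 (SE 1.00) at P15, 1.40 (SE 0.99) at P18 and 2.19 (SE 1.01) at P21, and none met the call rule. The fit shares an estimate of spread among the groups, so the P18 gap enters each SE. Libraries of WT P15, rd10 P15 and rd10 P21 stood 1.04-fold, 1.29-fold and 1.03-fold apart. The P18 value became 2.28 without rd10 P18 replicate 2 and -1.23 without replicate 1, and each of these met the call rule in its own direction. The 2 rd10 P18 libraries also differ in sex, and with a term for sex the P18 value was -0.05. The 2 rd10 P21 libraries differ in sex as well and measured 135 and 139.6 CPM. The part of sex in the P18 gap was not tested.

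Fgf2os measured 0.961 and 1.81 CPM in WT P15, had 0 counts in both rd10 P15 libraries, and measured 8.44 and 8.19 CPM in rd10 P18 and 9.76 and 12.4 CPM in rd10 P21. Its groups did not overlap, and the 2 rd10 P18 libraries were alike where those of Fgf2 were not. With a floor of 3 counts over the rd10 P15 group, which is 0.0502 CPM, rd10 P15 was at least 27.6-fold lower than WT P15, rd10 P18 at least 166-fold higher than rd10 P15, and rd10 P21 at least 221-fold higher than rd10 P15. Against WT P15 the log2 fold change was 2.58 (SE 0.40) at P18 and 2.99 (SE 0.40) at P21, and both met the call rule, as did the drop at P15. Floors and spreads cover counting error and the 2 libraries alone.

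Fgf2os made up 38.9% of the summed Fgf2 and Fgf2os level in rd10 P18 replicate 2, against 0% to 8.15% in the other 7 libraries. In GENCODE M21 the 2 genes lie on opposite strands of chromosome 3 and their spans share 1395 bp without a shared exon base. Another antisense gene, Nudt6, shares 640 exon bases (9.4% of the Fgf2 exons) and measured between 1.59 and 4.85 CPM. The counting is not stated to use strand, so reads of a gene and its antisense partner cannot be told apart where they overlap. Gaps between the libraries of a group like that of Fgf2 were rare but not unique, since 116 of 15130 tested genes with a mean count of at least 50 (0.767%) stood at least 8-fold apart in rd10 P18, and 0.489% to 0.615% did so in the other groups.

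**Figure D2:**
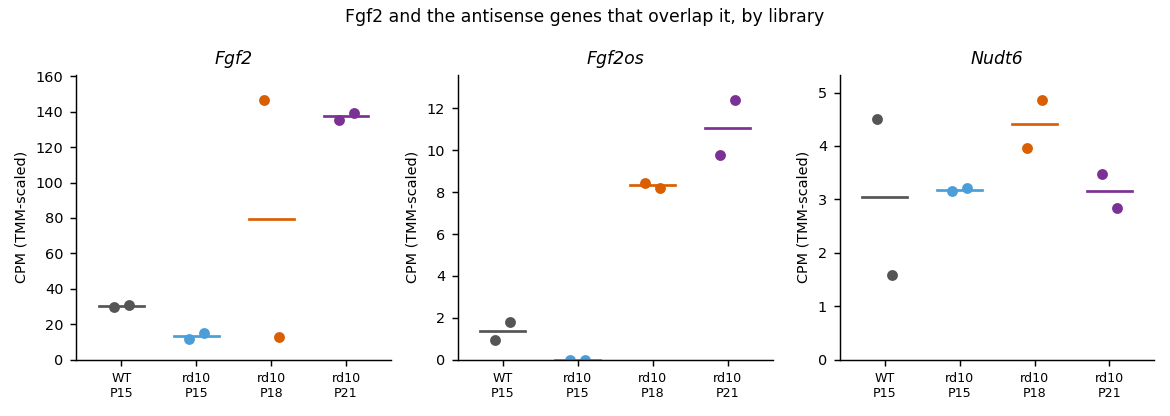
TMM-scaled CPM (y axes, linear, from 0) of Fgf2, Fgf2os and Nudt6 in the 4 groups (x axes), with 1 point per library and a bar at the mean of 2. Fgf2 is at 146 and 12.9 CPM in rd10 P18 while Fgf2os is at 8.44 and 8.19 CPM, and Nudt6 stays between 1.59 and 4.85 CPM in all libraries.

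Counted over the members, the 3 comparisons with WT P15 gave 1, 5 and 3 calls with age. At P15 only Fgf2os was called, and it was lower, where 0.23% of the 20457 genes tested were called. At P18 Osmr, Cntf, Stat3, Socs3 and Fgf2os were called, all higher, where 1.48% of genes were called. At P21 Osmr, Stat3 and Fgf2os were called, all higher, where 0.386% of genes were called. Since the members were chosen on these contrasts, nothing is read from the difference between their counts and those shares. Osmr, Stat3 and Socs3 were called at P18 in all 8 fits that left out 1 library, Fgf2os in 6 of 8 and Cntf in 3 of 8, and the calls of Fgf2os and Cntf were also lost with a term for sex. At P15 Fgf2os was called in 4 of 8 and not with that term. At P21 Stat3 was called in 3 of 8, Osmr in 3 of 8 and Fgf2os in 2 of 8.

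The median log2 fold change of the members against WT P15 was -0.36 at P15, 1.80 at P18 and 1.28 at P21, beside medians over all tested genes of -0.01, 0.01 and 0.00. Libraries did not overlap for 6 members at P15, all lower in rd10, where 49.7% of tested genes did not overlap. At P18 they did not overlap for 7 members, of which Lifr was lower and the rest higher, where 47% of genes did not overlap. At P21 they did not overlap for 9 members, again with Lifr alone lower, where 49.2% of genes did not overlap.

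**Figure D3:**
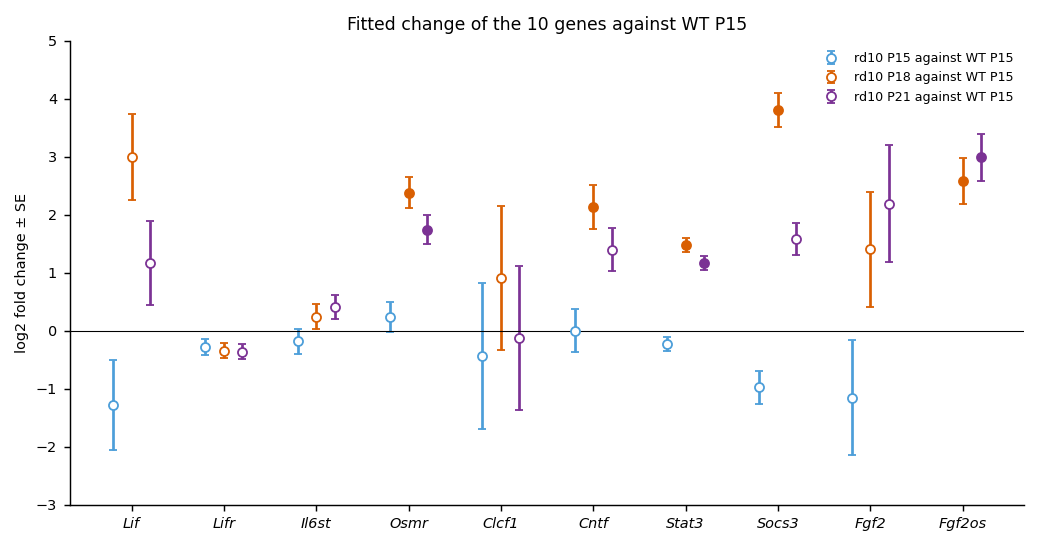
Fitted log2 fold change against WT P15 with its SE (y axis, linear) for the 10 genes (x axis) in rd10 P15, P18 and P21, with filled points for values past the call rule and open points for the others. Socs3 stands highest at P18 with 3.80, Lifr lies just below 0 in all 3 comparisons, and the P15 value of Fgf2os is left out because both rd10 P15 libraries had 0 counts.

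Between the rd10 ages, Osmr, Stat3, Socs3 and Fgf2os were called higher at P18 than at P15, where 0.591% of genes were called. Here the log2 fold change was 2.15 (SE 0.26) for Osmr, 1.70 (SE 0.12) for Stat3 and 4.78 (SE 0.31) for Socs3. Between rd10 P21 and rd10 P15, Stat3 (1.39, SE 0.12), Socs3 (2.55, SE 0.29) and Fgf2os were called, where 0.401% of genes were called. At P18 against P15 DESeq2 called 6 members, adding Lif and Cntf, among 604 genes called. At P21 against P15 it called 7 members, adding Osmr, Fgf2, Lif and Cntf, among 528 genes called. Between rd10 P21 and rd10 P18 edgeR called 0 of the 10, where 0.0196% of genes were called, 4 members had an unadjusted p under 0.05, and DESeq2 called 1, Socs3. In that comparison Lif, Osmr, Cntf, Stat3 and Socs3 were lower at P21 in both libraries and Fgf2os was higher. The share of all genes whose libraries did not overlap is not given for it. That share was 47% to 49.7% in the comparisons with WT P15, so nothing is read from the number of members.

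Per kilobase of exon in GENCODE M21, which allows levels of different genes to be compared, Il6st, Lifr and Stat3 led in WT P15. The mean level was 13.3 CPM per kb for Il6st, 10.4 for Lifr, 7.54 for Stat3, 4.44 for Fgf2 and 2.94 for Cntf, and each of the other 5 was below 1.2 CPM per kb. The library ranges of these 5 did not overlap one another. At P18 the order on the same scale began with Stat3 (20.9), Socs3 (16.3), Il6st (15.8) and Cntf (12.9), and the ranges of Socs3 and Cntf fell within that of Il6st or overlapped it. Fgf2 came next with 11.7, its libraries at 1.90 and 21.6 CPM per kb. The rank of Cntf is uncertain in every group, since 78.9% of its exon bases are shared with Zfp91. At P21 Fgf2 led with 20.3 CPM per kb, clear of Il6st (17.7) and Stat3 (16.9), which overlapped each other. Lif was last in WT P15 and rd10 P21, and at its P18 peak it reached 1.62 CPM per kb.

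The rest of the pathway was read from 9 lists of 113 genes, of which 112 were in the table and 99 were tested. The lists were written with a summary of these data known, so their counts, medians and p-values are a description. At P18 15 of the 99 rose and none fell against WT P15, at P21 5 rose and 1 fell, and at P15 only Edn2 fell. Of all tested genes 1.48%, 0.386% and 0.23% were called in these comparisons. Against rd10 P15, 8 rose at P18 and 5 at P21. Between rd10 P21 and rd10 P18 edgeR called 0 of the 99, with 23 at an unadjusted p under 0.05, and DESeq2 called 5. The adjusted p-values below are from edgeR's quasi-likelihood test with Benjamini-Hochberg adjustment over the 20457 genes tested.

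The list of STAT3 target genes held 11 of the 15 that rose at P18. The median log2 fold change of its 21 genes against WT P15 was -0.05 at P15, 2.53 at P18 and 1.80 at P21, and 10, 19 and 19 of the 21 were above 0. Over all tested genes the medians were -0.01, 0.01 and 0.00. From P18 to P21 all 21 estimates were below 0, with a median of -0.77, and none was called by edgeR there (10 at an unadjusted p under 0.05, 5 by DESeq2, namely Lcn2, Bcl3, Gfap, Cebpd and Junb).

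Gfap, the intermediate filament of reactive glia, measured 27.3 and 43.0 CPM in WT P15, 28.1 and 25.0 CPM in rd10 P15, 363 and 399 CPM in rd10 P18, and 126 and 119.8 CPM in rd10 P21. It rose at P18 by 3.44 (SE 0.22, adjusted p = 0.000745) and at P21 by 1.81 (SE 0.21, adjusted p = 0.0288) on the log2 scale. The P18 and P21 libraries were all above the P15 libraries of either genotype. The transcription factor gene Cebpd rose by 3.39 (SE 0.26, adjusted p = 0.00171) at P18 and by 1.80 (SE 0.25, adjusted p = 0.0351) at P21.

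Edn2, the endothelin gene of stressed photoreceptors, was the one listed gene called at all 3 ages. It measured 1.85 and 4.44 CPM in WT P15, 0.191 and 0.141 CPM in rd10 P15, 34.4 and 28.0 CPM in rd10 P18, and 27.5 and 21.4 CPM in rd10 P21. It was lower than in WT P15 at P15 (-4.21, SE 0.51, adjusted p = 0.0252) and higher at P18 (3.30, SE 0.39, adjusted p = 0.0108) and P21 (2.95, SE 0.39, adjusted p = 0.0332). No 2 of its groups overlapped. Like Fgf2os, it was lowest in rd10 P15.

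Bcl3, a transcriptional cofactor of NF-kappaB, rose at P18 by 6.17 (SE 0.65, adjusted p = 0.00697) and at P21 by 4.10 (SE 0.62, adjusted p = 0.0445). Serpina3n, a secreted protease inhibitor of reactive glia, rose at P18 by 5.74 (SE 0.51, adjusted p = 0.00787) and at P21 by 4.48 (SE 0.48, adjusted p = 0.0332). Serpina3n went from 5.21 and 3.27 CPM in WT P15 to 212 and 241 CPM in rd10 P18 and to 131 and 57.6 CPM in rd10 P21. Bcl3 was below 0.5 CPM in every P15 library and at 19.9 and 18.7 CPM in rd10 P18.
The immediate early gene Junb rose at P18 by 1.93 (SE 0.21, adjusted p = 0.00805), and its P21 estimate was 0.92 (SE 0.21, adjusted p = 0.118). Cebpb (3.02, adjusted p = 0.0285), the interferon response factor gene Irf1 (2.94, adjusted p = 0.0348), A2m (3.59, adjusted p = 0.0222), the protease inhibitor gene Timp1 (6.19, adjusted p = 0.0405) and the siderophore-binding lipocalin gene Lcn2 (5.99, adjusted p = 0.037) rose at P18 and were not called at P21. Whether a gene's change differed between P18 and P21 is the comparison of those 2 groups given above, in which edgeR called none of the 21 and DESeq2 called 5, Bcl3, Junb and Lcn2 among them.

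**Figure D4:**
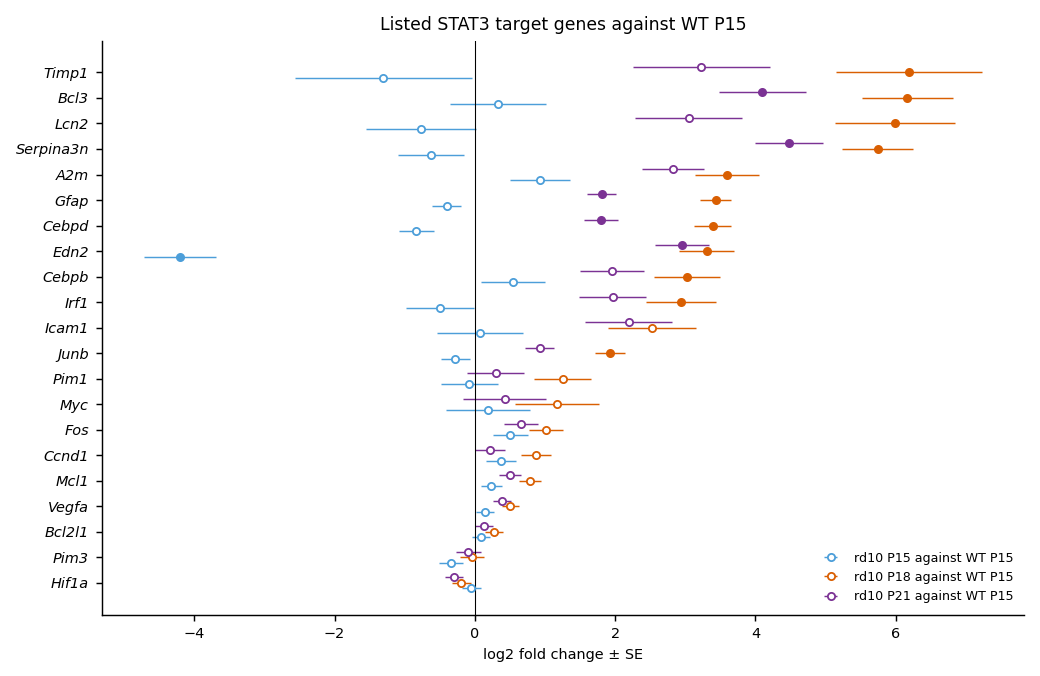
Fitted log2 fold change against WT P15 with its SE (x axis, linear) for the 21 listed STAT3 target genes (y axis, ordered by the P18 value) in rd10 P15, P18 and P21, with filled points for values past the call rule. The P18 points reach 6.19 for Timp1, the P21 points lie to their left for all 21 genes, and Edn2 alone is called at P15.

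Among 10 tested JAK and STAT genes, Jak3, a kinase best known in immune cells, rose at P18 by 2.36 (SE 0.39, adjusted p = 0.0298), from 3.95 and 3.04 CPM in WT P15 to 15.7 and 20.3 CPM in rd10 P18. Its P21 libraries were at 10.8 and 5.87 CPM and were not called. The lists of interleukin-6 family cytokines (5 tested), receptor chains (5 tested) and pathway inhibitors (11 tested) had 0 calls by edgeR in all 6 comparisons. Over those comparisons 0 to 1, 0 to 2 and 1 to 5 of their genes reached an unadjusted p under 0.05. By DESeq2 the calls were 0 cytokines, the receptor gene Il6ra at P21 against WT P15, and the phosphatase gene Ptpn6 at P18 against WT P15 and against rd10 P15. The most abundant of each list were Ctf1, a cardiotrophin gene with 0.509 to 2.66 CPM, Cntfr, the CNTF receptor gene with 34.1 to 41.2 CPM, and Socs7, with 196 to 271 CPM. Il6, Osm and Il31 did not pass the filter on low counts, and Osm encodes oncostatin M, the ligand of OSMR.

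On the FGF side, the FGF receptors (5 tested) and the other secreted FGFs (12 tested) also had 0 calls by edgeR in all 6 comparisons. In each, 0 to 2 genes had an unadjusted p under 0.05 in any comparison, and DESeq2 called 0 of both lists. Fgfr1, the most abundant receptor, measured 29.8 and 28.0 CPM in WT P15 and 50.2 and 56.9 CPM in rd10 P18, and its log2 fold change of 0.89 (SE 0.17, adjusted p = 0.0465) stayed under the fold threshold. Fgf1, the most abundant of the other ligands, lay between 51.8 and 89.5 CPM. Of 13 FGF and ERK feedback genes, edgeR called 1, Spry1, an inhibitor of receptor tyrosine kinase signalling, which rose at P18 by 1.27 (SE 0.25, adjusted p = 0.0444) and measured 7.80 and 11.98 CPM in WT P15, 13.4 and 14.3 CPM in rd10 P15, 25.8 and 22.1 CPM in rd10 P18, and 16.4 and 13.9 CPM in rd10 P21. Unlike Fgf2, Spry1 had similar levels in both rd10 P18 libraries.

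Among 17 other trophic factors, Serpinf1, which encodes pigment epithelium-derived factor, rose at P18 by 1.84 (SE 0.37, adjusted p = 0.0481), and Manf, an endoplasmic reticulum stress-inducible trophic factor gene, rose by 1.04 (SE 0.17, adjusted p = 0.0291). Nxnl1, whose product is rod-derived cone viability factor, fell at P21 by 1.14 (SE 0.16, adjusted p = 0.0351), with 422 and 379 CPM in WT P15 and 160.4 and 203 CPM in rd10 P21. At P18 the calls of Serpinf1 and Spry1 each held in 1 of 8 fits that left out a library, that of Lcn2 in 2, that of Manf in 3, that of Irf1 in 4, those of A2m, Serpina3n and Timp1 in 5, those of Cebpb and Jak3 in 6 and that of Junb in 7, and Gfap, Cebpd, Edn2 and Bcl3 were called in all 8. At P21 the calls held in 4 of 8 such fits for Gfap and Edn2, in 3 for Cebpd, Bcl3 and Nxnl1, and in 2 for Serpina3n. With a term for sex the P21 calls of Bcl3, Edn2, Nxnl1 and Serpina3n were lost, and with the replicate block those 4 and Cebpd. The term for sex also lost the P15 call of Edn2 and the P18 calls of A2m, Jak3, Manf, Serpinf1, Spry1 and Timp1. The replicate block also lost the P15 call of Edn2 and the P18 calls of Serpinf1, Spry1 and Timp1. The P15 call of Edn2 held in 4 of 8 fits.

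Sums of cell type markers also differed between the groups, not all in the order seen for these genes, and their part in the results was not tested. The 9 microglia markers summed to 71.2 and 77.2 CPM in WT P15, 100.5 and 98.4 CPM in rd10 P15, 233 and 239.7 CPM in rd10 P18, and 339 and 181 CPM in rd10 P21, and 4 of 9 rose at P18. The 9 rod markers summed to 53906 and 43737 CPM in WT P15 and already less, 32601.5 and 34686 CPM, in rd10 P15. They summed to 28886 and 28560 CPM in rd10 P18 and 20592 and 26844 CPM in rd10 P21. Of these markers 2 of 9, Gnat1 and Prph2, fell at P21. The 9 Muller glia markers summed to 4469 and 4932 CPM in WT P15 and to 4824 and 4090 CPM in rd10 P15. They summed to 3984 and 4188 CPM in rd10 P18, where 1 of 9, Vim, rose. At P21 the Muller glia sum was 5707 and 5542 CPM.

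The 3 astrocyte markers summed to 39.2 and 44.1 CPM in WT P15 and 53.8 and 64.8 CPM in rd10 P15. They summed to 80.2 and 71.5 CPM in rd10 P18, where 1 of 3, Aldh1l1, rose. In rd10 P21 the astrocyte sum was 71.1 and 67.6 CPM. The 5 markers of retinal pigment epithelium, a neighbouring tissue, summed to 185 and 221 CPM in rd10 P15 and to 37.1 and 141 CPM in WT P15, against 18.6 to 29.7 CPM in rd10 P18 and rd10 P21, and 1 of 5, Lrat, fell at P21. Their sum was highest in the 2 rd10 P15 libraries, where Fgf2os had 0 counts and Fgf2 was low. It was lowest in rd10 P18 replicate 2, where Fgf2 was low and Fgf2os measured 8.19 CPM. In rd10 P21 replicate 1 the sum was 22.3 CPM and Fgf2 measured 135 CPM. Whether the sum bears on these genes was not tested. The 5 endothelial markers ran from 219 to 472 CPM, and 1 of 5, Cldn5, rose against WT P15 at P15 and at P18, while DESeq2 called 4 of 5 at P15. The 5 lens markers summed to between 0.443 and 5.01 CPM. No marker list apart from that of the lens held a gene left out by the filter on low counts.

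The genes whose pattern over the 8 libraries was most like that of a member were ranked by Pearson's r of log2 CPM among tested genes with a mean count of at least 50, as a description. For Lif they were Adamts1 (0.978), Epha2 (0.97), Csf2ra (0.967), Dclk3 (0.952) and Tmem43 (0.949), where the 99th percentile of r over 15129 genes was 0.854. For Stat3 they were Lrrc2 (0.995), Serpina3n (0.984), Tnfrsf1a (0.984), Gnb3 (0.982) and Gm37904 (0.981), with a 99th percentile of 0.912. For Fgf2 they were 0610037L13Rik (0.963), Dll1 (0.951), Alms1-ps1 (0.946), Zfp410 (0.943) and Ankrd23 (0.936), with a 99th percentile of 0.782, and here the low rd10 P18 replicate 2 is part of the pattern. The 8 points are 4 groups of 2 libraries and are not independent conditions.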

How the data were processed

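Raw read counts per Ensembl gene identifier, whole numbers without normalization, were deposited by the authors for the 8 libraries. The submitters' processing notes name HISAT2. No counting tool, build or annotation release is given in the sources used here. Symbols, overlaps and exon lengths come from GENCODE M21, where 52081 of the 57010 identifiers have a name, so gene models can differ from the authors'. The members and all gene lists were chosen with earlier results of these data known.

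The test was edgeR 4.0.16 in R 4.3.3. Low genes were removed by filterByExpr over the 4 groups, at a count of 10 and a total of 15, TMM factors scaled the libraries, and the robust quasi-likelihood model was fitted to all 8 libraries, with 4 residual degrees of freedom. Adjustment was Benjamini-Hochberg across 20457 tested genes, and calls needed an adjusted p below 0.05 together with a log2 fold change beyond 1 in either direction. The SE is the log2 fold change divided by the square root of F. Log2 CPM used a prior count of 2. Libraries of a group differed by more than sampling noise. The chi-square per tested gene was highest in rd10 P18, at 96.6, and lay between 22.9 and 37.2 in the other groups. Total counts, between 28076947 and 33724562, set the precision of scarce genes.

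The text names all members, every pathway gene called in at least 1 of 6 comparisons, the most abundant gene of each list without a call, and the 5 genes most like Lif, Fgf2 and Stat3. Of the genes overlapping a member it names Zfp91, Stat5a, Nudt6 and Fgf2os. AC109138.7 also shares 311 exon bases with Clcf1 and Gm43439 shares 255 with Fgf2. Both had at most 3 counts in any library. Other genes named, among them marker genes, Ptpn6, Il6ra, Osm, Il6 and Il31, were chosen after their values were seen. Alternatives were DESeq2 1.42.0, RLE factors, scaling by library size alone, keeping all genes with a count, no fold threshold, a replicate block, a term for sex read from Y-linked counts, each library left out, and Fgf2 and Fgf2os summed. The fits were tested on simulated data. Promoter windows came from RefSeq on GRCm38.p6. A search of the receptor proteins for a STAT3-binding motif was planned and not run. Figures were drawn with matplotlib.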

Additional observations from a re-analysis of the deposited data

Results flagged for a closer look

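Of the members, 5 had 1 rd10 age with both libraries above and another with both libraries below the WT P15 libraries, as did 1934 of 20457 tested genes (9.45%). The rd10 ages share the same WT P15 libraries, so each case rests on the mean difference between the rd10 ages themselves. Stat3 was higher by 138 CPM at P18 and by 99.4 CPM at P21 than at P15, Socs3 by 45.4 CPM and 8.36 CPM, and Fgf2os by 8.32 CPM and 11.1 CPM, and each of these 6 differences was called by edgeR in the comparison of the rd10 ages. Il6st was higher by 66.0 CPM and Fgf2 by 124 CPM at P21 than at P15, and neither was called.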

How the results depend on the processing

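Calls are counted below in the order rd10 P15, P18 and P21 against WT P15, then rd10 P18 against P15, P21 against P15 and P21 against P18. The 10 members gave 1, 5, 3, 4, 3 and 0 calls and the 99 tested pathway genes 1, 15, 6, 8, 5 and 0. DESeq2 gave 1, 6, 5, 6, 7 and 1 for the members and 1, 20, 14, 16, 15 and 5 for the pathway genes. Without the filter on low counts they were 1, 5, 4, 6, 4 and 1, and 1, 13, 6, 9, 6 and 2. With the term for sex they were 0, 3, 1, 5, 3 and 1, and 0, 9, 2, 12, 6 and 1. Over all genes the calls were 47, 303, 79, 121, 82 and 4 in the main fit. DESeq2 called 429, 954, 571, 604, 528 and 118 genes. Without the filter the calls over all genes were 144, 383, 160, 173, 125 and 19. With the term for sex they were 4, 191, 36, 275, 156 and 12. With the replicate block they were 16, 232, 18, 118, 66 and 6. RLE size factors, library size only and no fold threshold kept each member and pathway count within 1.5 times. Library size only moved the median of all genes by 0.135 for rd10 P18 and 0.112 for rd10 P21 (log2, against WT P15), and no member that was called changed sign under it. Replicate numbers did not pair the samples, since deviations of same-numbered libraries correlated between -0.025 and 0.059, and with the replicate block the counts were 1, 5, 1, 4, 3 and 1, and 0, 12, 1, 9, 4 and 0. With 1 library left out, where a lone library is assumed to vary like the other groups, member counts ran from 0 to 2, 3 to 6, 0 to 5, 3 to 7, 1 to 5 and 0 to 1, and pathway counts from 0 to 1, 5 to 18, 0 to 7, 3 to 14, 1 to 7 and 0 to 8. At P18 against WT P15, members fell to 3 without either WT P15 library and pathway genes to 5 and 6 without WT P15 replicates 1 and 2 and to 9 without rd10 P18 replicate 1 or either rd10 P15 library. At P21 against WT P15, members fell to 0 without WT P15 replicate 1, either rd10 P15 library or rd10 P21 replicate 1, to 1 when WT P15 replicate 2 was left out and to 2 when rd10 P21 replicate 2 was, and rose to 5 without either rd10 P18 library. Pathway genes fell there to 1 without WT P15 replicate 1 or rd10 P21 replicate 1, to 3 when WT P15 replicate 2 was left out and to 0 with either rd10 P15 library absent. Against rd10 P15, without either rd10 P15 library, members fell to 3 at P18 and 1 at P21 and pathway genes to 3 and 1, and without rd10 P18 replicate 2 members rose to 7 and 5 and pathway genes to 12 and 7. Without rd10 P18 replicate 1 members rose to 5 at P21, and without either rd10 P21 library pathway genes rose to 14 at P18. At P15 against WT P15, Fgf2os and Edn2 lost their calls without either rd10 P15 or either rd10 P21 library, and Fgf2 was called without either rd10 P18 library. Between rd10 P21 and P18, pathway genes rose to 8 without rd10 P18 replicate 2 and to 1 without either WT P15 library, and members to 1 without either rd10 P18 library. Calls over all tested genes also moved when a library was left out, mostly in the direction of the member calls. The shifts are therefore not read as a trait of the members. Fewer libraries leave fewer residual degrees of freedom, and the cause of the other shifts was not tested. Of 846 member fold changes under alternatives, 821 kept their sign, and no called value reversed. Summing Fgf2 and Fgf2os gave Fgf2 changes against WT P15 of 1.48 for rd10 P18 and 2.24 for rd10 P21. Depth limits Lif, Clcf1 and Fgf2os most.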
